A study of Mus musculus with 5 samples.

Results

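Distal partly methylated CpG-poor tiles are stretches of 1 kb, away from CpG-dense DNA, in which neither full methylation nor its absence prevailed. They numbered 1184 of 24319 autosomal tiles measured in all 5 libraries (4.87%), and 1184 of the 10713 measured distal tiles (11.1%). A tile was measured when at least 3 CpG positions had 10 or more reads in every library. It counted as CpG-poor with under 30 positions listed in any library, and as distal when none of the 2 tiles on either side held 30 or more. Its level is the share of its reads, in percent, that were methylated, and tiles were kept when the mean of both group means lay from 20 to under 80%. The levels themselves therefore chose the tiles, and they are given below as a description.

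The libraries came from LSK cells of mouse bone marrow on a mixed 129Ola and C57Bl/6J background, a fraction without mature lineage markers and with Sca1 and Kit that holds blood stem and progenitor cells. Knock-in mice with Idh1-R132H gave 3 libraries, and wild-type mice gave 2. R132H is a recurrent change of isocitrate dehydrogenase 1 in glioma and acute myeloid leukaemia. The age and sex of the mice, whether 1 or both alleles carried the change, the cells in which it was switched on and whether a library pooled animals are not given in the sources used here. Nothing says that libraries are separate animals, so p-values measure only how these libraries vary, perhaps for technical reasons. The tables hold DNA methylation only, so the LSK label was not checked against marker genes.

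Methyl groups are placed on CpGs by the DNMT enzymes and are oxidised, as a step towards removal, by the TET enzymes. Most CpG-poor DNA of mammals is highly methylated, whereas active enhancers and other bound elements often show lower levels. A level between the extremes can arise when cells of a population differ, when both alleles differ, or when methyl groups are added and lost in turn. Mutant IDH1 makes 2-hydroxyglutarate, which can inhibit TET enzymes, and the study compared mutant with normal LSK cells. No sequence or gene is given for the tiles: the gene table at hand is on another genome build and was not used with these mm9 positions.

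The reads behind a tile were few. Members held 5115 shared CpG positions, a median of 4 per tile and at most 14. A position is 1 cytosine on 1 strand, so a CpG read on both strands counts as 2. Counts of CpGs in a tile below are of such positions. Reads of a tile are summed over its positions, so a read that covers several positions counts at each of them. Of the 1184, 557 rested on 3 positions, 355 on 5 or more and 31 on 10 or more. Median reads per tile were 198, 93 and 460.5 in knock-in replicates 1, 2 and 3 and 67 and 117 in wild-type replicates 1 and 2, and the lowest value was 30. Knock-in replicate 2 and wild-type replicate 1, the shallowest libraries, also stood apart on chromosome X, where 159 CpG-dense tiles averaged 24.1% in both and 2.94 to 3.82% in the other 3 libraries. Only 6 and 2 chromosome Y positions were listed in them, against 174 to 614 in the others.

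Methylation of the distal partly methylated tiles was higher in each knock-in library than in both wild-type libraries. Averaged over the 1184 tiles, knock-in replicates 1, 2 and 3 were at 60.3, 60.3 and 56.3%, and wild-type replicates 1 and 2 at 52.6 and 54.0%. The groups did not overlap, but knock-in replicate 3 lay nearer to wild-type replicate 2 than to the other knock-in libraries. Group means were 59.0% ± 2.33 (SD, n = 3) and 53.3% ± 1.05 (SD, n = 2), a difference of 5.66 percentage points. The exact 2-sided permutation p was 0.2 (adjusted p = 0.4 over 6 comparisons). With 10 divisions of the libraries no p under 0.1 was possible, and the labelled division did not reach it. The libraries with methylated X-linked dense tiles, 1 of each group, differed by 7.75 points. The other 2 knock-in libraries and the other wild-type library differed by 4.24 points. Neither value has replicates in both groups, and the part of the X-linked split in the difference was not tested.

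**Figure D1:**
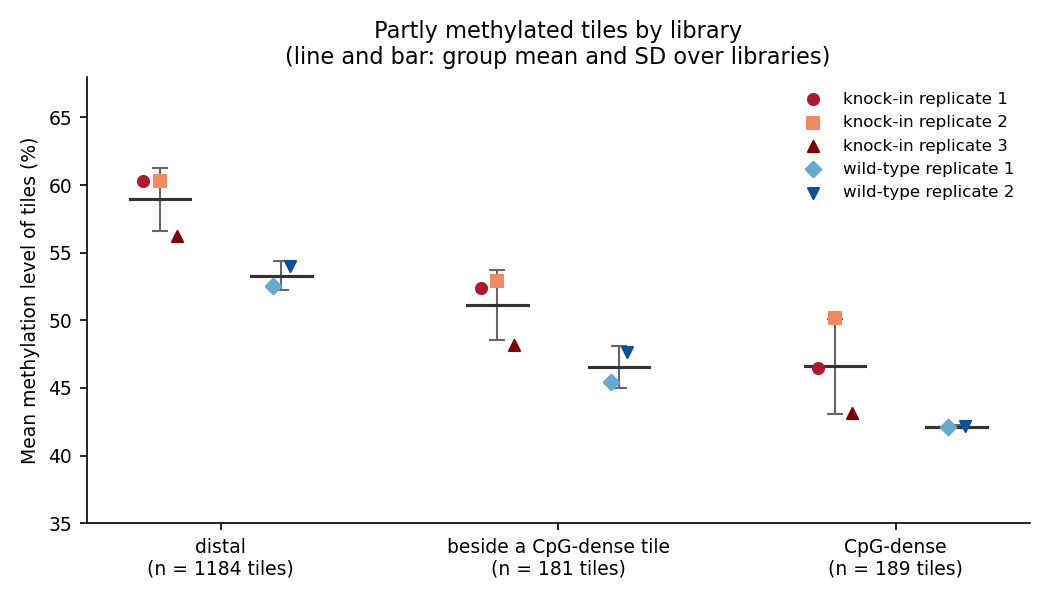
Mean methylation level in percent over partly methylated tiles that are distal, that lie beside a CpG-dense tile, or that are CpG-dense. Points are single libraries, and lines and bars are group means with SD (n = 3 knock-in, n = 2 wild-type); the distal tiles lie at 56.3 to 60.3% in knock-in and 52.6 to 54.0% in wild-type libraries.

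The choice of tiles and the difference drew on the same reads. The difference was therefore also computed with tiles chosen by the mean of 1 knock-in and 1 wild-type library and measured in the other 3. This gave 1165 to 1358 tiles, depending on the pair. Knock-in was higher by 3.44 to 5.69 points in the 6 such choices, with a median of 4.16. The choices share libraries and each has 1 wild-type library, so they are not independent of each other. Another 3037 positions in 739 member tiles had 10 reads in the 3 deepest libraries but not in all 5, and the rule had not used them. Their mean level was 60.0% for knock-in replicate 1, 56.0% for knock-in replicate 3 and 55.3% for wild-type replicate 2. The difference, 2.71 points, compares with 3.95 points at the used positions of the same tiles and libraries. It has 1 wild-type library and no test. At the unused positions 461 of the 739 tiles (62.4%) again lay from 20 to under 80%, while 88 were below and 190 above. Unused positions can share reads with used ones.

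Most single tiles went in the same direction as the mean. The knock-in mean was above the wild-type mean in 802 members (67.7%) and below in 382, where 58.8% of all measured tiles were above and 31.8% below. Of the partly methylated tiles beside CpG-dense ones 62.4% were above, and of the partly methylated CpG-dense ones 69.3%. The members' share is thus near that of other partly methylated tiles. The median tile differed by 5.45 points. Members at 20 to under 50% (414 tiles) were at 37.5% ± 2.98 (SD, n = 3) across knock-in and 30.9% ± 1.07 (SD, n = 2) across wild-type libraries. Members at 50 to under 80% (770 tiles) were at 70.5% ± 2.09 (SD, n = 3) and 65.4% ± 1.04 (SD, n = 2). The excess of 6.65 points in the lower and 5.12 points in the upper members differed by 1.54 points, with an exact permutation p of 0.3 (adjusted p = 0.45). Weighted by reads, the sign of this contrast turned, to -0.228 points.

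**Figure D2:**
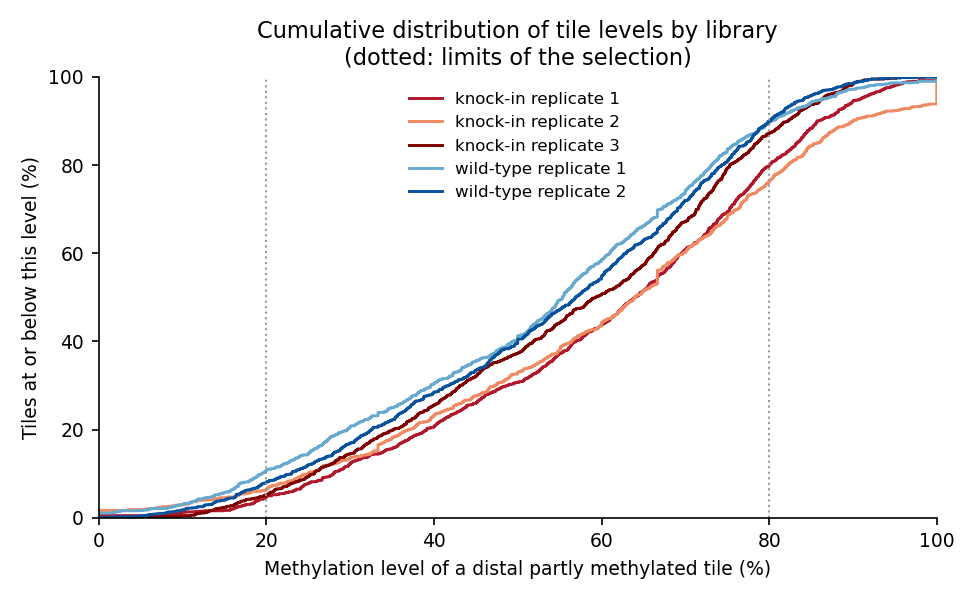
Cumulative share of the 1184 distal partly methylated tiles (percent, y axis) at or below a methylation level (percent, x axis), 1 line per library. The knock-in lines run to the right of the wild-type lines over most of the range, and in each library some tiles fall outside the dotted limits of 20 and 80%, since the limits apply to the mean of both group means.

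Single libraries often put a member outside the window. Only 443 of the 1184 (37.4%) lay from 20 to under 80% in every library. Tiles at 80% or more numbered 240, 284 and 152 in knock-in replicates 1, 2 and 3 and 126 and 120 in wild-type replicates 1 and 2. Tiles under 20% numbered 55, 75 and 61 among knock-in and 126 and 93 among wild-type libraries. Both counts differed between the groups without overlap, in opposite directions. Knock-in replicate 2 read 100% in 73 members and 0% in 20, against none of either in knock-in replicate 3, which was read most deeply.

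Both sparser and denser members were higher in the knock-in libraries. Sparser and denser here mean fewer or more listed positions, which depend on what was sequenced as well as on CpG content. The 600 members with 3 to 9 listed positions were at 61.0% ± 2.17 (SD, n = 3) across knock-in and 55.1% ± 1.41 (SD, n = 2) across wild-type libraries. The 584 members with 10 to 29 positions were at 56.8% ± 2.51 (SD, n = 3) and 51.4% ± 0.680 (SD, n = 2). The sparser tiles were thus the more methylated in both groups, by 3.19 to 4.61 points in each library. Their differences of 5.90 and 5.40 points were 0.500 points apart, with an exact permutation p of 0.4 (adjusted p = 0.48). At 20 reads per position this contrast was -2.92 points.

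Members lay a median of 41 kb from the nearest CpG-dense tile, between the 31 kb of unmethylated distal tiles (under 20%) and the 48 kb of highly methylated ones (80% or more). Their share of the measured distal tiles stayed between 9.26 and 12.2% in all 6 classes of distance. Unmethylated tiles fell over the same classes from 35.7% at 3 to 5 kb to 18.5% beyond 100 kb, and highly methylated ones rose from 52.1 to 71.8%. The difference between the groups was 5.58 points in the 98 members at 3 to 5 kb, 7.24 points in the 98 at 6 to 10 kb and 4.83 points in the 290 beyond 100 kb. The knock-in mean was above the wild-type mean on all 19 autosomes, and on 16 of them the libraries did not overlap. All autosomes were read in the same 5 libraries, so they do not replicate each other. Other tiles were not computed by chromosome, so these counts have no background. The difference ran from 2.95 points on chromosome 18 (29 members) to 9.80 points on chromosome 16 (36 members), and was 7.11 points in the 67 members on chromosome 1, which carries Idh1. Differences between distance classes and between chromosomes were not tested.

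Partly methylated tiles elsewhere were also higher in every knock-in library than in both wild-type libraries, on average. The 181 partly methylated tiles beside a CpG-dense tile were at 51.1% ± 2.60 (SD, n = 3) across knock-in and 46.5% ± 1.54 (SD, n = 2) across wild-type libraries, and the 189 that were CpG-dense themselves at 46.6% ± 3.49 (SD, n = 3) and 42.1% ± 0.0773 (SD, n = 2). The excess in distal members was larger by 1.06 points than in the first kind (exact permutation p = 0.1, the smallest possible; adjusted p = 0.4) and by 1.21 points than in the second (exact permutation p = 0.5; adjusted p = 0.5). The first of these turned to -0.481 points with at least 5 positions per tile, and both had either sign when tiles were chosen in other libraries than they were measured in. Over the 6822 highly methylated distal tiles the knock-in libraries averaged 94.0% ± 0.726 (SD, n = 3) and the wild-type libraries 92.9% ± 0.150 (SD, n = 2). The difference was 4.53 points wider in the members than there (exact permutation p = 0.2; adjusted p = 0.4), whose levels lie nearer to 100%.

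Members varied widely between libraries of the same group. The median range over the 5 libraries was 30.4 points, with quartiles of 20.7 and 43.3, and 182 members (15.4%) ranged over 50 points or more. The median absolute difference between 2 libraries was 9.29 to 14.5 points within the knock-in group and 12.7 points between the wild-type libraries. Between the groups it ran from 7.20 points, for knock-in replicate 3 and wild-type replicate 2, to 17.1 points, for knock-in replicate 2 and wild-type replicate 1. Pairs with the shallow libraries were thus furthest apart, and the closest pair crossed the groups. With the summed reads of a tile taken as independent, counting gives a median SD of 3.95 to 7.50 points for these differences. By this SD, 40.9 to 62.4% of tiles differed by more than 2 SDs. Where positions share reads, the SD is too small and the share of tiles beyond it too large. Across the 1184 tiles, Pearson's r between libraries was 0.402 to 0.834, over tiles that share libraries and depth.

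Most members were read over a short stretch. The shared positions spanned a median of 63 bases (quartiles 39 and 95), and in 544 members (45.9%) they lay on 1 strand within 50 bases, so that they can come from the same reads. Such members ranged over a median of 35.6 points, and 23.5% of them over 50 points or more. The other 640 members ranged over a median of 27.2 points, and 8.44% of them over 50 points or more. The short ones also had fewer reads, with a median of 48 against 74 in the shallowest library of a tile. The group difference was 5.75 points in the short and 5.58 points in the other members. CpGs of 1 tile are therefore no independent measurements, and intervals for a tile cover counting error only. Where positions share reads, these intervals are too narrow.

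At the level of single CpGs the members held a mixture of partly methylated and extreme positions. Of the 5115 positions, 55.8, 39.7 and 63.0% lay from 20 to under 80% in knock-in replicates 1, 2 and 3, and 51.9 and 61.6% in wild-type replicates 1 and 2. Positions at exactly 100% made up 32.4% of knock-in replicate 2, 16.0% of wild-type replicate 1 and 2.13% of knock-in replicate 3. Median coverage there was 23, 17 and 118 reads. The share of partly methylated CpGs was lowest in the 2 shallowest libraries, and the part of depth in it was not tested.

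**Figure D3:**
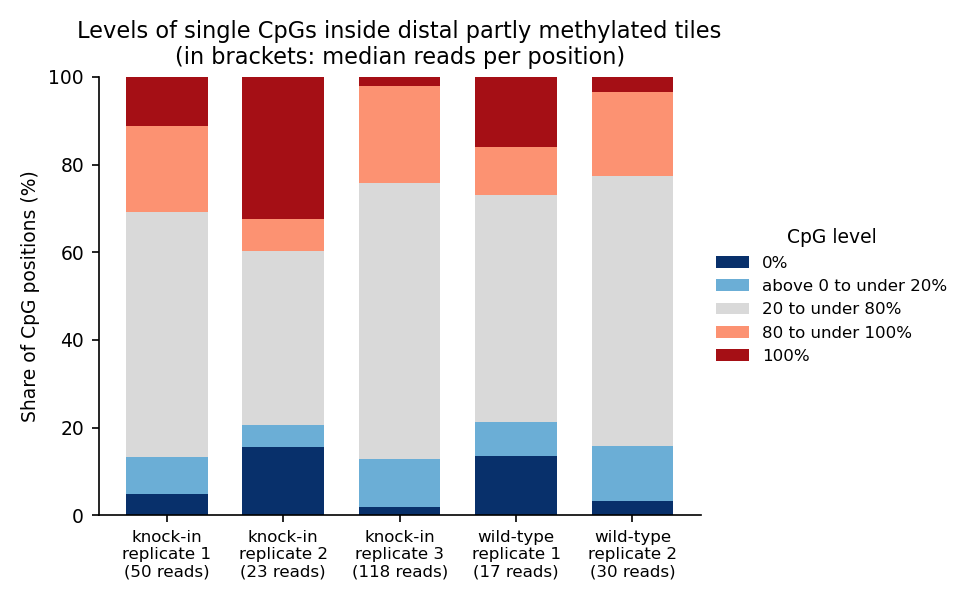
Share of the 5115 CpG positions in distal partly methylated tiles (percent, y axis) by level class in each library, with the median reads per position in brackets. Knock-in replicate 2 has the smallest share from 20 to under 80% (39.7%) and the largest at 100% (32.4%).

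CpGs within a member also differed from each other. The highest and lowest CpG of a tile, as means of both group means, were a median of 34.8 points apart. In 364 members (30.7%) every CpG lay from 20 to under 80%, and these were at 55.9% ± 3.96 (SD, n = 3) across knock-in and 49.3% ± 0.310 (SD, n = 2) across wild-type libraries. In 89 members (7.52%) CpGs under 20% stood beside CpGs at 80% or more, with levels of 53.9% ± 1.94 (SD, n = 3) and 50.2% ± 2.14 (SD, n = 2). In these 89, knock-in replicate 3 (51.6%) lay below wild-type replicate 2 (51.8%), so the groups overlapped. Mixed tiles were more frequent among partly methylated tiles that were CpG-dense (36 of 189, 19.0%) or lay beside one (22 of 181, 12.2%). CpG-dense tiles had a median of 8 shared positions and the other kinds 4, and the shares were not tested.

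Both strands of a CpG were read at 322 sites inside the members. A CpG is the same on both strands, and maintenance methylation keeps the 2 cytosines alike. The median absolute difference between strands was 9.38 points for knock-in replicate 3 and 11.6 for wild-type replicate 2, the libraries with the smallest differences. It was 14.1 points in knock-in replicate 1, 20.9 in wild-type replicate 1 and 30.9 in knock-in replicate 2. The strands were within 20 points of each other at 82.9% of sites in the first and at 35.4% in the last of these libraries. Knock-in replicate 2 thus had the largest differences between strands, and the part of depth in them was not tested. Without it the group difference over all members was 4.98 points.

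No member passed the test across tiles. By edgeR's quasi-likelihood test with Benjamini-Hochberg adjustment, 0 members were higher and 0 lower (0.0% of all tiles in either direction), and their smallest adjusted p was 1. At an unadjusted edgeR p under 0.05, 4 members were higher (0.338%), all described below, and 0 lower, where 0.843% of all tiles were higher and 0.748% lower. Such p-values were reached by 0.0% of the 181 partly methylated tiles beside CpG-dense ones and of the 189 partly methylated CpG-dense ones. edgeR thus gave few small p-values at levels of this kind. The absence of calls therefore does not show that the groups are alike. By limma on arcsine square root levels, 0 members passed, with a smallest adjusted p of 0.578. At an unadjusted limma p under 0.05, 59 were higher (4.98%) and 13 lower (1.10%), where 2.66% of all tiles were higher and 1.22% lower. Of the 181 partly methylated tiles beside CpG-dense ones, 6 (3.31%) were higher and 2 (1.1%) lower. Of the 189 partly methylated CpG-dense ones, 3 (1.59%) were higher and 4 (2.12%) lower. Differences between these limma shares were not tested.

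Members in which the groups lay apart were mostly higher in knock-in. In 177 members (14.9%) every knock-in library exceeded every wild-type library and the group means were at least 10 points apart, and 38 (3.21%) showed the reverse. Over all tiles, of which 1554 were partly methylated, these shares were 2.37% and 0.621%. Without a minimum distance, 211 members (17.8%) were higher and 50 (4.22%) lower, where 8.98% and 3.61% of all tiles were. With means 20 points apart, 91 members (7.69%) were higher and 8 (0.676%) lower, against 0.596% and 0.074% of all tiles. With the nearest libraries 10 points apart, 43 (3.63%) were higher and 5 (0.422%) lower, against 0.313% and 0.037% of all tiles. Partly methylated tiles beside CpG-dense ones were higher in 6.63% (12 of 181) with means 20 points apart. With the nearest libraries 10 points apart they were higher in 1.10% (2 of 181), and they were lower in 0.0% either way. CpG-dense ones were higher in 4.76 and 1.06% (9 and 2 of 189) by the same limits and lower in 2.12 and 1.59% (4 and 3 of 189). Several of these shares thus rest on very few tiles. The differences between these shares were not tested. With means 10 points apart, 14.9% of partly methylated tiles beside CpG-dense ones were higher and 2.21% lower, and 11.6% and 3.17% of CpG-dense ones. At this limit the members' shares are thus near those of other partly methylated tiles. The ratio of higher to lower members was 4.66. It was 3.04 without wild-type replicate 1 and 2.54 without wild-type replicate 2. The 177 higher tiles were spread over 19 autosomes and had a median of 4 shared positions, the same median as in the 969 tiles without such a separation.

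**Figure D4:**
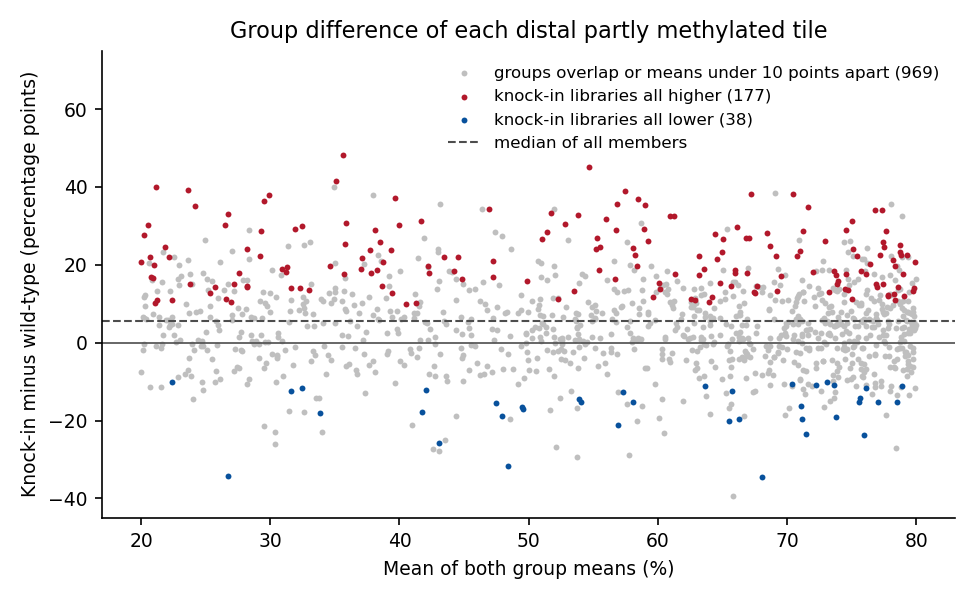
Knock-in minus wild-type level in percentage points (y axis) against the mean of both group means in percent (x axis) for each of the 1184 distal partly methylated tiles. The 177 tiles with all knock-in libraries higher (red) and the 38 with all lower (blue) occur over the whole range of levels, and the dashed line is the median of 5.45 points.

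The separation was weaker at positions that had not been used to find it. Of the 177 higher members, 101 had such positions in the 3 deepest libraries. Knock-in was above wild-type there in 70 of them (69.3%), where 57.6% of all 739 tiles with such positions were above. The mean difference was 6.45 points, against 14.9 points at the used positions in the same libraries. Of the 38 lower members, 25 had unused positions, and knock-in was below in 14 (56.0%), where 40.9% of all were below. Their mean difference was -4.12 points, against -10.9 points at the used positions. Only wild-type replicate 2 stands for wild-type in these values, and they were not tested. The tiles were picked with the same libraries, and unused positions can share reads with used ones.

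The tiles described next were picked by fixed rules on these same values, so their differences are descriptions. The first are those with at least 5 positions in which the closest pair of knock-in and wild-type libraries lay furthest apart. On chromosome 5, the tile from 130845000 to 130845999 (mm9) was at 73.2, 80 and 77.8% in knock-in replicates 1, 2 and 3 and at 45.0 and 31.0% in wild-type replicates 1 and 2. The knock-in libraries lay close together and 28.2 points above the nearer wild-type library. The tile rested on 5 CpGs within 71 bases and on 55 to 549 reads per library. edgeR gave it an unadjusted p of 0.122, and limma on arcsine square root levels one of 0.00304 (adjusted p = 0.861). Of its 5 CpGs, 4 lay on the reverse strand, where knock-in replicate 2 had 11 reads per CpG that were all methylated. On the forward strand, the CpG at 130845266 was at 10.7, 0 and 35.4% among the knock-in and at 10 and 0% among the wild-type libraries. This CpG had the smallest difference of the 5, and its groups overlapped.

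On chromosome 16, the tile from 92444000 to 92444999 had the lowest wild-type levels of these tiles. Its knock-in libraries were at 30.3, 53.3 and 23.3% and its wild-type libraries at 4.96 and 5.92%, over 7 CpG positions within 81 bases. Some of these positions are both strands of the same CpG. The 95% Wilson intervals of the wild-type libraries reached from 2.29 to 10.5%, and those of the knock-in libraries began at 20.6%. These intervals take reads summed over positions as independent, and are too narrow where positions share reads. All 7 positions had a higher knock-in than wild-type mean, and in 3 of them no libraries of the groups overlapped. The unadjusted edgeR p was 0.0492, and knock-in replicate 2 was far above the other knock-in libraries.

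A further 4 tiles of this kind had knock-in above wild-type. On chromosome 8, the tile from 3392000 to 3392999 was at 64.0% ± 6.89 (SD, n = 3) across knock-in and 29.8% ± 9.30 (SD, n = 2) across wild-type libraries, over 6 CpG positions within 36 bases. On chromosome 7, the tile from 29580000 to 29580999 was at 47.4% ± 6.97 (SD, n = 3) and 17.5% ± 3.49 (SD, n = 2). It went from 29.9 points to 18.3 points when each position was thinned to 10 reads. The tile from 6976000 to 6976999 on chromosome 17 had the most even libraries, with 64.9% ± 2.54 (SD, n = 3) and 48.6% ± 1.69 (SD, n = 2). The tile from 36087000 to 36087999 on chromosome 1 had 75.3% ± 1.98 (SD, n = 3) and 56.7% ± 7.17 (SD, n = 2). Thinned to 10 reads per position, their differences went from 16.3 to 10.95 points and from 18.6 to 10.7 points. The tiles on chromosomes 5 and 8 went from 39.0 to 32.7 points and from 34.2 to 29.4 points. That on chromosome 16 rose from 30.2 to 37.9 points. The thinning was a single random draw.

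The 6 members furthest apart in the other direction had narrower distances between the groups, of 2.99 to 12.1 points, against 11.7 to 28.2 points in the 6 higher ones. The lower ones were picked from 10 separated members with at least 5 positions and the higher ones from 51. Picking from a larger pool widens such distances by itself, so the contrast is a description. The widest lay on chromosome 11 from 116922000 to 116922999, with knock-in libraries at 26.7, 22.4 and 25.3% and wild-type libraries at 47.1 and 38.8%. Its difference of -18.1 points was -9.67 points at 10 reads per position. On chromosome 17 the tile from 37007000 to 37007999 was at 63.0% ± 10.3 (SD, n = 3) and 79.2% ± 1.66 (SD, n = 2). On the same chromosome the tile from 56546000 to 56546999, at 65.1% ± 3.73 (SD, n = 3) and 75.7% ± 1.04 (SD, n = 2), went from -10.7 to -1 points at 10 reads per position. On chromosome 2 the tile from 155834000 to 155834999, at 39.7% ± 7.57 (SD, n = 3) and 55.2% ± 0.943 (SD, n = 2), went from -15.4 to -0.714 points. Of its 7 CpGs, spread over 617 bases, 4 were at 0% in every library while the highest averaged 97.7%, so that its level moves with the reads each CpG contributes. The tiles from 25873000 to 25873999 on chromosome 18 and from 105225000 to 105225999 on chromosome 7 differed by -11.7 and -25.7 points, with 3.58 and 2.99 points between the nearest libraries. At 10 reads per position these 2 tiles differed by -18 and -23.9 points. The tile from 37007000 on chromosome 17 went from -16.2 to -16.4 points.

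**Figure D5:**
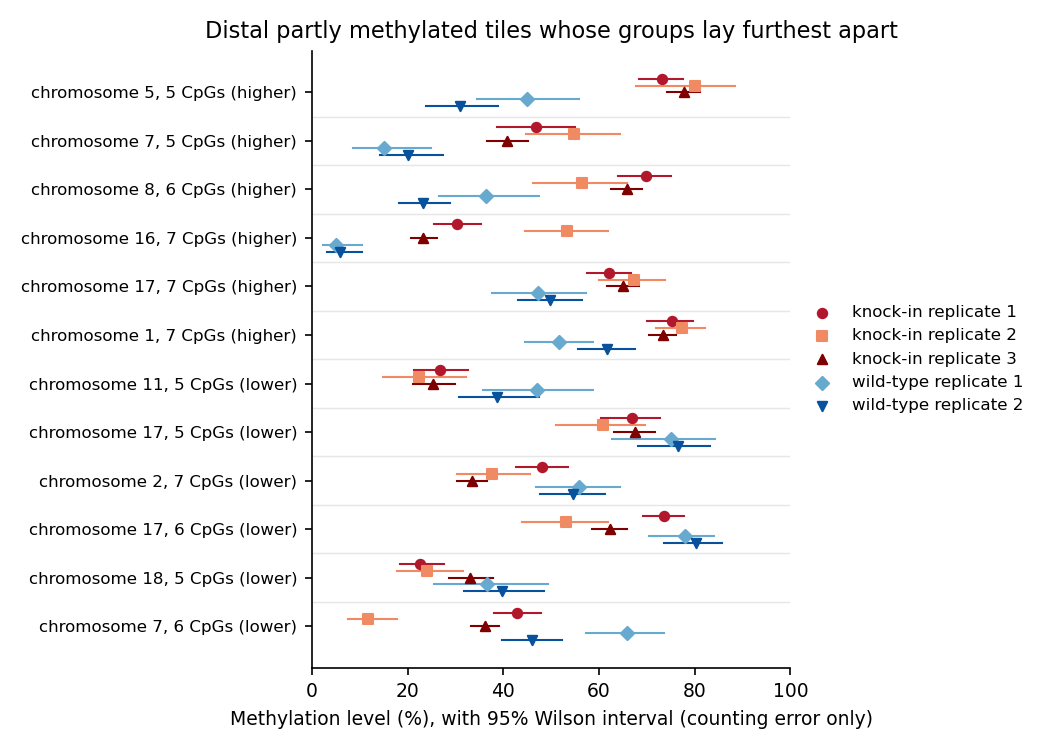
Methylation level in percent (x axis) of the 12 distal partly methylated tiles with at least 5 CpGs whose groups lay furthest apart, the 6 of higher and the 6 of lower level in knock-in. Points are libraries with 95% Wilson intervals, which cover counting error only and are too narrow where positions share reads. On chromosome 5 the knock-in libraries lie at 73.2 to 80% and the wild-type libraries at 31.0 and 45.0%.

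The 3 members of lowest edgeR p had a wide spread among the knock-in libraries, with knock-in replicate 3 lowest in each. On chromosome 12, the tile from 85379000 to 85379999 had an unadjusted edgeR p of 0.00522, with knock-in libraries at 41.3, 68.4 and 13.8% and wild-type libraries at 0 and 2.34%. All 4 of its CpGs lay on the reverse strand within 39 bases, and each had all knock-in libraries above both wild-type libraries. Wild-type replicate 1 gave 0 methylated of 43 reads summed over the 4 CpGs, with 10 or 11 reads at each. The 95% Wilson interval for 43 reads reaches 8.20%, but it is too narrow if the CpGs share reads. On chromosome 5, the tile from 111658000 to 111658999 had knock-in libraries at 80.1, 65.6 and 33.5% and wild-type libraries at 16.9 and 6.03%. Its unadjusted edgeR p was 0.0263. Its 4 CpGs also moved together, on 1 strand within 44 bases. Its difference of 48.3 points was the widest of all members with knock-in higher. On chromosome 7, the tile from 53529000 to 53529999 was at 100, 100 and 73.6% and at 69.8 and 62.6% in the same order, over 3 CpGs within 37 bases. Its unadjusted edgeR p was 0.0185.

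The members with the most shared positions did not separate the groups, with 1 exception. On chromosome 1 from 121080000 to 121080999, 14 CpG positions were at 72.0% ± 6.24 (SD, n = 3) across knock-in and 70.3% ± 0.727 (SD, n = 2) across wild-type libraries. On chromosome 7 from 20204000 to 20204999, 14 CpG positions were at 42.5, 54.1 and 56.2% and at 16.8 and 53.5%, and without wild-type replicate 1 the difference went from 15.8 to -2.56 points. With 13 CpG positions each, the tile from 146650000 to 146650999 on chromosome 4 was at 28.9% ± 5.73 (SD, n = 3) and 32.1% ± 0.445 (SD, n = 2), and that from 56267000 to 56267999 on chromosome 17 at 68.6% ± 12.8 (SD, n = 3) and 57.1% ± 3.53 (SD, n = 2). The exception lay on chromosome 8 from 27462000 to 27462999. There the knock-in libraries were at 53.3, 43.4 and 42.5% and the wild-type libraries at 39.6 and 32.7%, with 2.92 points between the nearest libraries over 265 to 1568 reads.

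The members with the widest range over libraries were read in short blocks. On chromosome 11 from 5906000 to 5906999, 6 CpGs on the reverse strand within 35 bases were at 0, 92.9 and 71.8% among the knock-in and at 0 and 30% among the wild-type libraries. In wild-type replicate 2 each of the 6 CpGs was at 30% of 40 reads. Here libraries of 1 group differed by most of the scale, while neighbouring CpGs of 1 library were alike. On chromosome 7 from 52997000 to 52997999 the levels were 6.45, 0 and 45.4% and 0 and 86.8%. On chromosome 17 from 39148000 to 39148999 they were 94.8, 31.9 and 11.7% and 80.9 and 90.3%. Each of these 3 tiles was read on 1 strand only, over 35 to 49 bases.

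The members with the smallest range over libraries held CpGs of unlike levels. On chromosome 2 from 110962000 to 110962999 the 5 libraries lay between 70.7 and 73.3%, over 463 to 7412 reads. Its CpG at 110962814 was at 7.41, 7.19 and 5.49% among the knock-in and at 8.26 and 4.82% among the wild-type libraries, while that at 110962843, on the same strand, was at 97.8, 93.9 and 93.6% and at 97.1 and 96.1%. The level of such a tile is an average over unlike CpGs, not a level that each CpG shows. On chromosome 17 from 22531000 to 22531999, 10 CpG positions ranged from 24.2 to 99.4% while the tile stayed between 73.6 and 77.5% in the 5 libraries. On chromosome 4 from 153278000 to 153278999 the libraries lay between 69.9 and 74.7%.

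Tiles on either side of a limit of the level window were alike in the mean that the rule used, but not in their libraries. Just inside 20% lay the tiles from 102097000 on chromosome 5 and from 167805000 on chromosome 2, with 20.01 and 20.03%, and just outside those from 63856000 on chromosome 16 and 3084000 on chromosome 17, with 19.99 and 19.98%. Of these, the tile on chromosome 2 was at 30.4% ± 9.06 (SD, n = 3) across knock-in and 9.68% ± 6.15 (SD, n = 2) across wild-type libraries, while that on chromosome 17 was at 20.1% ± 5.02 (SD, n = 3) and 19.9% ± 0.392 (SD, n = 2). Just inside 80% lay the tiles from 103595000 on chromosome 11 and 119851000 on chromosome 9, with 79.98 and 79.96%, and just outside those from 51517000 on chromosome 14 and 120726000 on chromosome 8, with 80.01% each. At the upper limit the single libraries reached from 54.7 to 100% in the members just inside.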

How the data were processed

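Genomic DNA was cut with MspI and sequenced after bisulfite treatment (extended reduced representation bisulfite sequencing), per the labels' protocols. The submitters' processing notes name CASAVA 1.7, Bismark and mm9. The deposited coverage is a read count per CpG position and strand, with at least 10 reads per listed position, and the deposited C and T columns are the percent of reads with each base, per the file headers. Methylated and unmethylated reads were computed as coverage times these percentages and came out whole, within 0.005% of the coverage, at 100% of positions. Replicate numbers only name libraries, in the order of their deposited records. Listed positions numbered 447270 to 2028186 per library.

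Positions were joined by chromosome, position and strand and summed in tiles of 1000 bases. Per-library means were compared by exact 2-sided permutation. All 24319 tiles were tested with edgeR 4.0.16, each library giving a column of methylated and one of unmethylated reads and having its own term (residual degrees of freedom, 3), and with limma 3.58.1 as an alternative, both tested on simulated data. The simulated spread between libraries was a fixed setting, smaller than the spread seen in the members. The simulation therefore does not show how the tests behave on the members. R 4.3.3, Python 3.11.15, pandas 2.3.3 and scipy 1.17.1 were used. Named tiles were the 6 members higher and the 6 lower in knock-in whose closest libraries lay furthest apart (5 or more positions, separated by 10 points), the 5 with the most positions, the 3 of lowest edgeR p, the 3 widest and the 3 smallest ranges over libraries (5 or more positions, 50 or more reads), and the 2 tiles on each side of each limit. Members and rules were chosen with earlier results of these data known. Amplified reads were not marked by molecule and so are not independent, and intervals cover counting error only.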

Additional observations from a re-analysis of the deposited data

How the results depend on the processing

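The group difference was above 0 under every alternative run, from 3.44 to 7.75 points on the percent scale. The lowest value is over 1358 tiles chosen in 1 knock-in and 1 wild-type library, not over the members. With 1 library left out the difference over members was 4.91 to 7.0 points (highest without knock-in replicate 3). At the unused positions of 739 member tiles, with 1 wild-type library, it was 2.71 points. Comparisons with other tiles were less stable. With 1 library left out, the excess over tiles beside CpG-dense ones was 0.711 to 1.4 points, that over CpG-dense tiles 0.467 to 2.32, that over highly methylated distal tiles 3.89 to 5.46, the contrast of density classes -0.0185 to 1.02 and that of lower and upper members 0.678 to 2.01. The contrast of density classes was -2.92 points at 20 reads per position, and that of lower and upper members -0.228 weighted by reads. With at least 5 positions, the excess over tiles beside CpG-dense ones was -0.481 and that over CpG-dense tiles -0.150; the latter was -0.121 with a window of 30 to 70% and -0.309 within the libraries with methylated X-linked dense tiles. With tiles chosen in 1 knock-in and 1 wild-type library (added after seeing the data, as was the X-linked split), the first was -0.569, -0.680 and -0.144 for knock-in replicates 1, 2 and 3 with wild-type replicate 2, the second -0.919 and -0.0448 for knock-in replicates 1 and 3 with the same, and the contrast of density classes -0.572, -0.0498 and -0.0166 with wild-type replicate 1. The cause was not tested. Members that separated the groups numbered 239 to 399 higher and 54 to 157 lower with 1 library left out, where fewer libraries must be apart. They numbered 35 and 8 at 20 reads per position (221 members), 51 and 10 with at least 5 positions (355 members), 91 and 8 at 20 points between means and 43 and 5 with nearest libraries 10 points apart. Shares over all tiles are given above for the last 2 settings. They were not computed with 1 library left out, at 20 reads or with 5 positions, so those counts cannot be set against a background. No member was called by edgeR with 1 library left out, at 20 reads per position or with at least 5 positions, nor by limma on any of 3 scales. Tests per tile were not run under the other alternatives. No paired analysis was possible because the labels give no replicate numbers: those used here follow accession order and pair nothing.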

Other observations

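Few members had a measured tile next to them, 83 neighbours in all. Of these, 35 were highly methylated distal tiles with a mean level of 91.7%, 28 were unmethylated distal tiles at 5.42%, 18 were members themselves at 48.4%, and 2 were unmethylated tiles beside a CpG-dense one.

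The member with the most reads in 1 library, on chromosome 13 from 44965000 to 44965999, held 8992 to 70985 reads per library over 8 positions. It was at 21.5, 20.3 and 29.6% in knock-in replicates 1, 2 and 3 and at 19.95 and 28.1% in wild-type replicates 1 and 2. The next, on chromosome 9 from 35113000 to 35113999, was at 71.2 to 77.3% in all 5 libraries over 3546 to 51117 reads. Both were chosen after their values were seen, and neither separated the groups.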
